A study of Mus musculus with 41 samples.

Results

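The response of mouse skin to a degradable P nanomesh carrying human endometrial mesenchymal stem cells (P+eMSC) was compared between 6 weeks and 1 week after implantation. The members were chosen by their labels alone: the 7 mice labelled with the P nanomesh plus eMSC at 6 weeks and the 7 mice with the same label at 1 week, that is 14 of the 41 mice of the study. Each mouse gave 1 Ct value (the PCR cycle at which the signal crosses a threshold) for each of 54 target genes and for the 18S ribosomal RNA (*Rn18s*), measured with TaqMan probes on a Fluidigm chip. The level of a gene was taken as the 18S Ct minus the gene Ct of the same mouse. It is a log2 value and is higher where there was more transcript per 18S. In the 14 mice it was below 0 for every gene. Levels of different genes come from different assays and were not set against each other.

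All of the mice were females of the NSG strain, and skin was the labelled tissue. P+eMSC mice had the mesh placed in pockets between the abdominal skin and fascia and the cells, sorted for SUSD2 and labelled with an mCherry lentivirus, pipetted onto it. The remaining 27 mice had the mesh alone (P, 6 mice at 1 week and 8 at 6 weeks) or a sham operation (7 and 6). NSG mice lack mature T and B cells and NK cells, so the response measured is that of an immunodeficient host. The cells came from 7 women, and 1 cell line was made from each biopsy and counted as a replicate, but the labels do not say which line a mouse received; some animals had also served in an earlier study. The assays were designed for mouse genes, and whether they also detect RNA of the human cells was not tested. In such bulk tissue, fewer cells of a type and less RNA per cell cannot be told apart.

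An implant in skin passes through the stages of wound repair. Neutrophils and monocytes arrive first, drawn by CXC and CC chemokines, and macrophages then settle around the material, fuse into foreign body giant cells and secrete growth factors such as TGF-beta. Fibroblasts lay down collagen, which metalloproteinases (MMPs) cut and their inhibitors (TIMPs) protect, and angiogenic factors guide new vessels into the site. The 54 genes cover these stages, and the comparison asks how their levels around a cell-seeded mesh stood in the early and in the late stage.

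The mice of a group differed from each other across the whole panel. The median level over the 48 genes detected in all 14 mice ran from -13.13 to -8.22 at 1 week (median -10.16) and from -10.58 to -7.94 at 6 weeks (median -9.20). The shift between the weeks was 0.96 (interval -0.44 to 2.55). The 18S Ct itself spanned a narrow range, 6.59 to 6.94 cycles at 1 week and 6.73 to 7.38 at 6 weeks, with a shift of 0.15 (interval -0.069 to 0.38). Mouse 78 stood low at 1 week. It was the lowest of its group in 46 of the 48 genes, and it also gave 6 of the 7 undetected values (*Ccl4*, *Cxcl2*, *Ccr7*, *Il1b*, *Il10* and *Nos2*). The other undetected value was *Ccl4* in mouse 2210 at 6 weeks. Mouse 2358 was the highest 1 week mouse in 28 genes and mouse 10 in 18, and at 6 weeks mouse 2351 was the highest in 30 and mouse 2317 in 13, while mice 60 and 2210 were the lowest in 24 and 18. With mouse 78 left out, the median shift over the 54 genes dropped from 0.88 to 0.46.

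**Figure D1:**
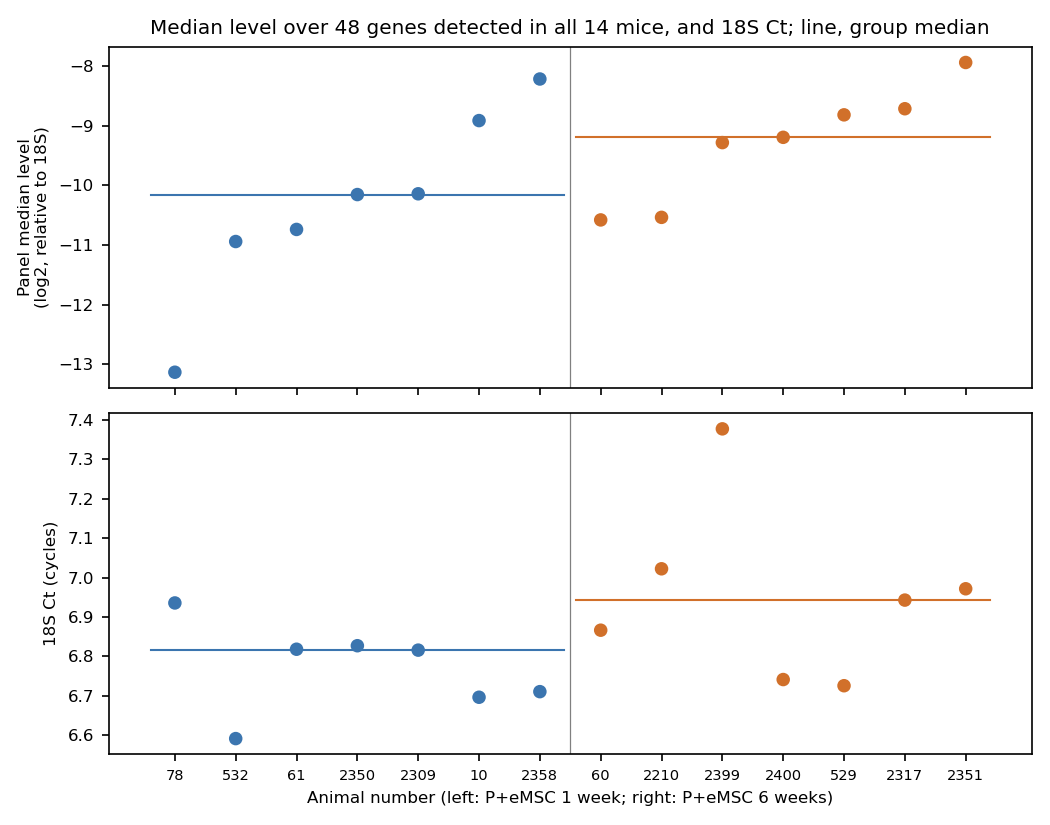
Median level over the 48 genes detected in all 14 mice (upper panel, log2 relative to 18S) and 18S Ct in cycles (lower panel) of each P+eMSC mouse, ordered by panel level within each week, with a line at the group median. Mouse 78 lies below all of the others at -13.13, while the 18S Ct of all 14 mice stays between 6.59 and 7.38.

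No gene passed the test between 1 and 6 weeks. Of 54 genes, 0 were called higher (0% of those tested) and 0 lower (0%) by a two-sided Mann-Whitney U test with exact p at the study's threshold, and 0 had an exact p below 0.05. The smallest exact p was 0.0728, where 7 against 7 mice can reach 0.000583, and the smallest Benjamini-Hochberg adjusted p over the 54 genes was 0.824. In a limma fit over all 6 groups 0 genes reached the threshold as well, and an exact permutation test of the mean called 1, *Tgfb2* (difference of means 1.08, exact permutation p = 0.0501, higher at 6 weeks). In this gene mouse 78 stood at -13.21, with the nearest 1 week mouse at -11.20. The Mann-Whitney U test gave *Tgfb2* a shift of 0.88 (exact p = 0.128), and of 0.07 relative to the panel median (exact p = 0.902). The ranges of the weeks overlapped in all 54 genes. The animal numbers fall into a series below 1000 (4 mice at 1 week, 2 at 6 weeks) and one above 2000 (3 and 5). The median difference of means over the genes was 1.03 in the lower series, with 36 genes above 0, and 0.36 in the upper, with 42 above 0, and permutation within the series called 0 genes.

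The direction was nonetheless uneven when 18S was the reference. The Hodges-Lehmann shift, which is the median of all differences between a 6 week and a 1 week mouse, was above 0 in 51 genes and below 0 in 3 (*Cxcl2*, *Ccr7* and *Il1b*). In these 3 genes mouse 78, which stood low at 1 week, was undetected and so left out. With undetected values set below the lowest, their shifts were -0.10, 0.0086 and 0.01. With undetected values left out, the median shift over the 54 genes was 0.88, or 1.84-fold higher at 6 weeks. Of the 54, 38 genes lay between 0.5 and 1.5. These 54 values are not separate pieces of evidence, since the same 14 mice and the same 18S measurement enter each of them. When the panel median of each mouse replaced 18S, only 21 genes had a shift above 0 and 33 were below it, the median being -0.12 and the range -1.53 to 1.83, and 0 genes were called (smallest exact p = 0.128, 0 genes with an exact p below 0.05).

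The intervals were wide. Each interval, which holds every shift that the exact test does not reject and has a level of 96.2% for 7 against 7 mice, contained 0, and 53 of the 54 also reached above 2, a 4-fold increase. Their widths ran from 2.40 to 9.11 with a median of 4.63. The data therefore leave room for sizeable differences in either direction: 32 intervals also reached below -1. The shift was smaller than the SD among the 1 week mice in 52 genes and smaller than the SDs of both weeks in 42.

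**Figure D2:**
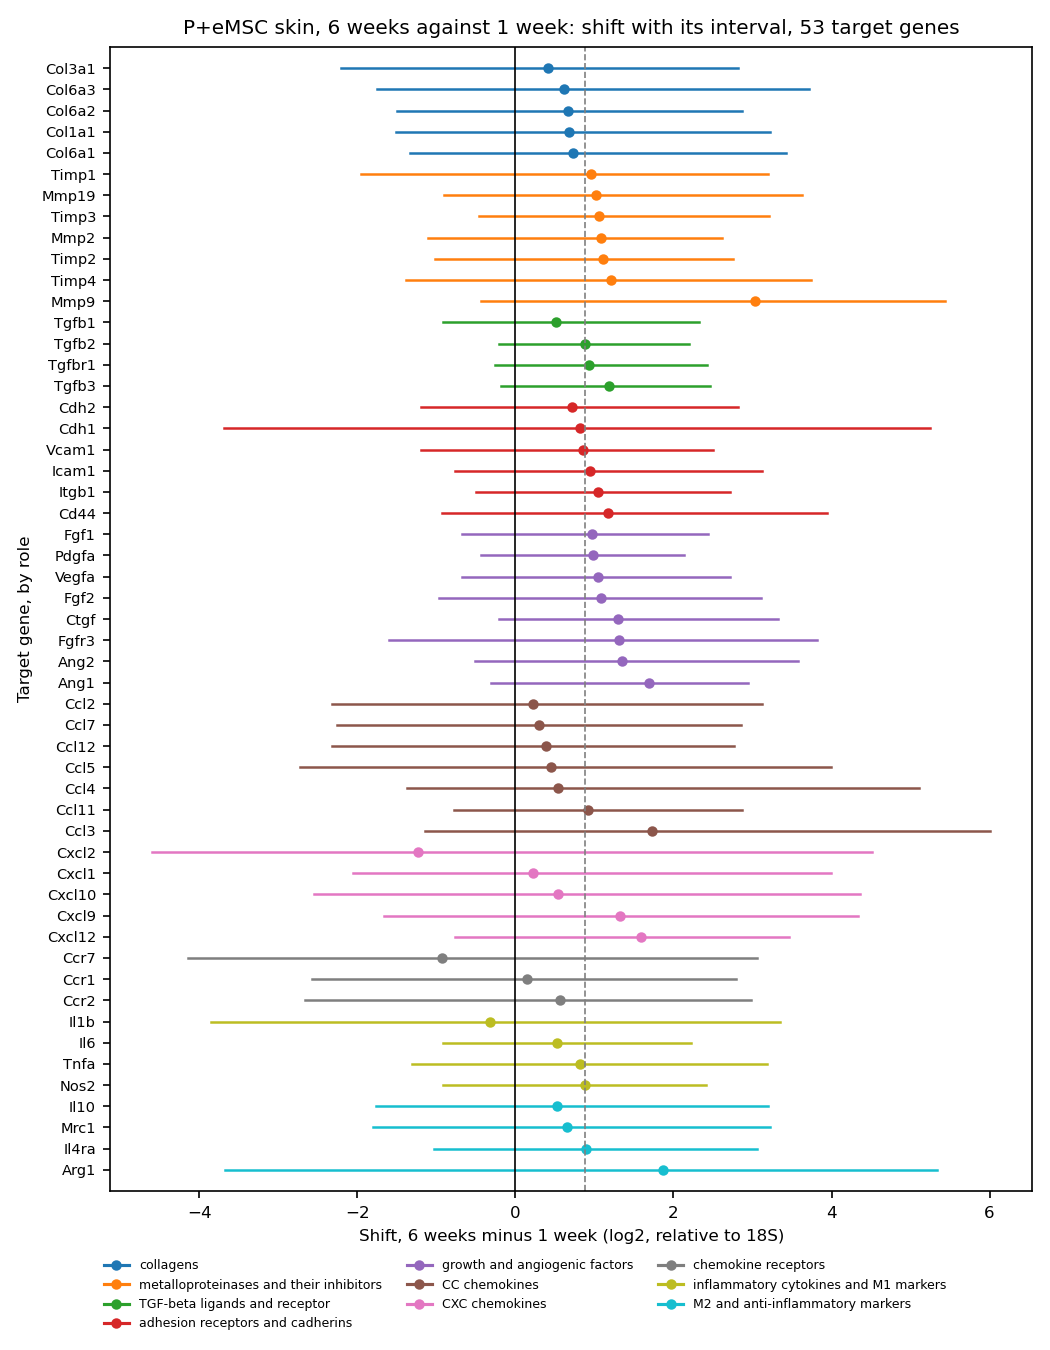
Shift of 53 of the 54 target genes between 1 and 6 weeks in P+eMSC mice (points, log2 relative to 18S) with its interval (lines), grouped and coloured by role; the dashed line is the median shift of 0.88. Every interval crosses 0, and all points but those of *Cxcl2*, *Ccr7* and *Il1b* lie to the right of it. In these genes mouse 78 was undetected and left out.

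Collagens form the scaffold of the new matrix, with collagens I and III as the main fibres and collagen VI as a fine network around cells. All 5 collagen genes had shifts above 0 relative to 18S, from 0.41 (*Col3a1*) to 0.73 (*Col6a1*), and all 5 lay below 0 relative to the panel median, from -0.60 to -0.22. The level of *Col6a1* ran from -12.17 through a median of -7.59 to -4.81 at 1 week and from -8.74 through -6.86 to -4.34 at 6 weeks. The 1 week range covered most of the 6 week range, with only mouse 2351 above it (shift 0.73, interval -1.34 to 3.43, exact p = 0.456). For *Col3a1* the levels were -7.68, -3.15 and -1.37 at 1 week and -5.77, -2.74 and -0.34 at 6 weeks (lowest, median and highest), a shift of 0.41 (interval -2.21 to 2.81, exact p = 0.805). Mouse 78 was the lowest in both genes, and the shift of *Col3a1* was -0.19 without it.

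The MMPs and TIMPs held the gene with the largest shift. *Mmp9*, a gelatinase stored in neutrophils and made by macrophages, had levels of -16.50, -15.56, -14.80, -14.52, -14.00, -11.14 and -9.02 in the 1 week mice. At 6 weeks they were -14.44, -14.35, -11.08, -10.97, -10.25, -10.12 and -7.00. At 6 weeks 5 of the 7 mice thus lay above all 1 week mice but mouse 10, and mouse 2317 lay above that mouse too. The shift was 3.03, or 8.17-fold (interval -0.43 to 5.44, exact p = 0.0728, adjusted p = 0.824), and 1.83 relative to the panel median (exact p = 0.259). Leaving out mouse 10 of the 1 week group gave 3.74 (exact p = 0.0140, past the threshold), and leaving out mouse 60 or mouse 2399 of the 6 week group gave 3.74 with an exact p of 0.05128 each, just past the threshold. These p-values were not adjusted. Mouse 10 was the highest at 1 week and mice 60 and 2399 the lowest at 6 weeks, so each removal was bound to favour the shift. Leaving out any other mouse did not bring *Mmp9* past the threshold.

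The other 6 genes of this group lay close together, with shifts between 0.96 and 1.21, and relative to the panel median 4 of the 7 genes were above 0 and 3 below. They were *Mmp2*, a gelatinase of fibroblasts, *Mmp19*, and *Timp1* to *Timp4*. *Timp1*, the inducible inhibitor, had the smallest shift. Its level was -14.77, -11.37 and -8.27 at 1 week and -13.44, -10.90 and -8.67 at 6 weeks (lowest, median and highest). The 6 week mice lay wholly within the 1 week range, with a shift of 0.96 (interval -1.96 to 3.19, exact p = 0.620).

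The TGF-beta group, 3 ligands and the receptor *Tgfbr1*, had shifts from 0.51 to 1.19, with 3 above 0 and 1 below relative to the panel median. TGF-beta drives fibroblasts to make matrix. *Tgfb3* levels were -11.03, -8.87 and -7.10 at 1 week and -9.04, -7.68 and -6.55 at 6 weeks. The 2 highest 6 week mice, 2351 and 2399, lay above all 1 week mice (shift 1.19, interval -0.18 to 2.47, exact p = 0.128). For *Tgfb1* the levels were -10.96, -7.99 and -5.84 at 1 week and -8.82, -6.76 and -5.33 at 6 weeks (shift 0.51, interval -0.92 to 2.32, exact p = 0.710). In *Tgfb2*, mouse 78 stood at -13.21 and the nearest 1 week mouse at -11.20.

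Adhesion receptors and cadherins, which tie cells to matrix and to each other, had shifts from 0.72 to 1.17 in all 6 genes, of which 4 were above 0 and 2 below relative to the panel median. *Cd44*, the receptor for hyaluronan, ran from -11.71 through -8.91 to -5.16 at 1 week and from -9.34 through -7.70 to -4.90 at 6 weeks. Mice 2351 and 2317 lay above the 1 week range (shift 1.17, interval -0.92 to 3.94, exact p = 0.209). N-cadherin (*Cdh2*) ran from -17.47 through -13.99 to -11.21 and from -15.10 through -12.99 to -11.20, a shift of 0.72 (interval -1.19 to 2.82, exact p = 0.456). The remaining 4, *Itgb1*, *Icam1*, *Vcam1* and *Cdh1*, lay between these values.

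Growth and angiogenic factors had shifts above 0 in all 9 genes, and those of the 8 described here ran from 0.97 to 1.69. Relative to the panel median 5 of the 9 were above 0 and 4 below. The largest belonged to *Ang1* (angiopoietin 1, which steadies vessels through the TIE2 receptor). Its levels were -11.99, -11.25, -10.97, -10.50, -9.85, -9.77 and -7.50 at 1 week. The 6 week levels were -10.30, -10.07, -9.42, -8.79, -8.16, -8.06 and -7.56. All 7 of the 6 week mice lay above the 1 week median, as they also did in *Fgf2*, *Vegfa* and *Mmp9*. Yet mouse 2358 at 1 week was the highest of all 14 in *Ang1* (shift 1.69, interval -0.31 to 2.94, exact p = 0.0973, adjusted p = 0.824). Relative to the panel median the shift of *Ang1* was 0.30 (exact p = 0.456).

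*Pdgfa*, a growth factor for fibroblasts and pericytes, is named here because its exact p was the lowest along with that of *Mmp9*, a choice made after the values were seen. Its levels ran from -11.48 through -10.36 to -8.82 at 1 week and from -10.64 through -9.38 to -8.14 at 6 weeks, with 3 of the 6 week mice above the 1 week range. The shift was 0.98 (interval -0.43 to 2.14, exact p = 0.0728, adjusted p = 0.824) and -0.10 relative to the panel median (exact p = 0.902).

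Several of these values depended on mouse 2358, the highest 1 week mouse in 28 of the 48 genes detected in all 14 mice. Leaving it out was therefore bound to favour higher levels at 6 weeks. Without this 1 week mouse, 9 of 54 genes passed the study's threshold, all higher at 6 weeks: *Ang1*, *Ctgf*, *Pdgfa*, *Tgfb3*, *Tgfbr1*, *Timp3*, *Vegfa*, *Itgb1* and *Nos2*, with shifts from 1.28 to 1.76. Without mouse 60 of the 6 week group 4 passed (*Pdgfa*, *Mmp9*, *Tgfb2* and *Tgfbr1*). Without mouse 10, 2350 or 2399, 1 gene passed each time, *Mmp9*, *Pdgfa* and *Mmp9*. Leaving out any of the other 9 mice left 0. All of these calls used exact p-values without adjustment and were not taken as results.

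**Figure D3:**
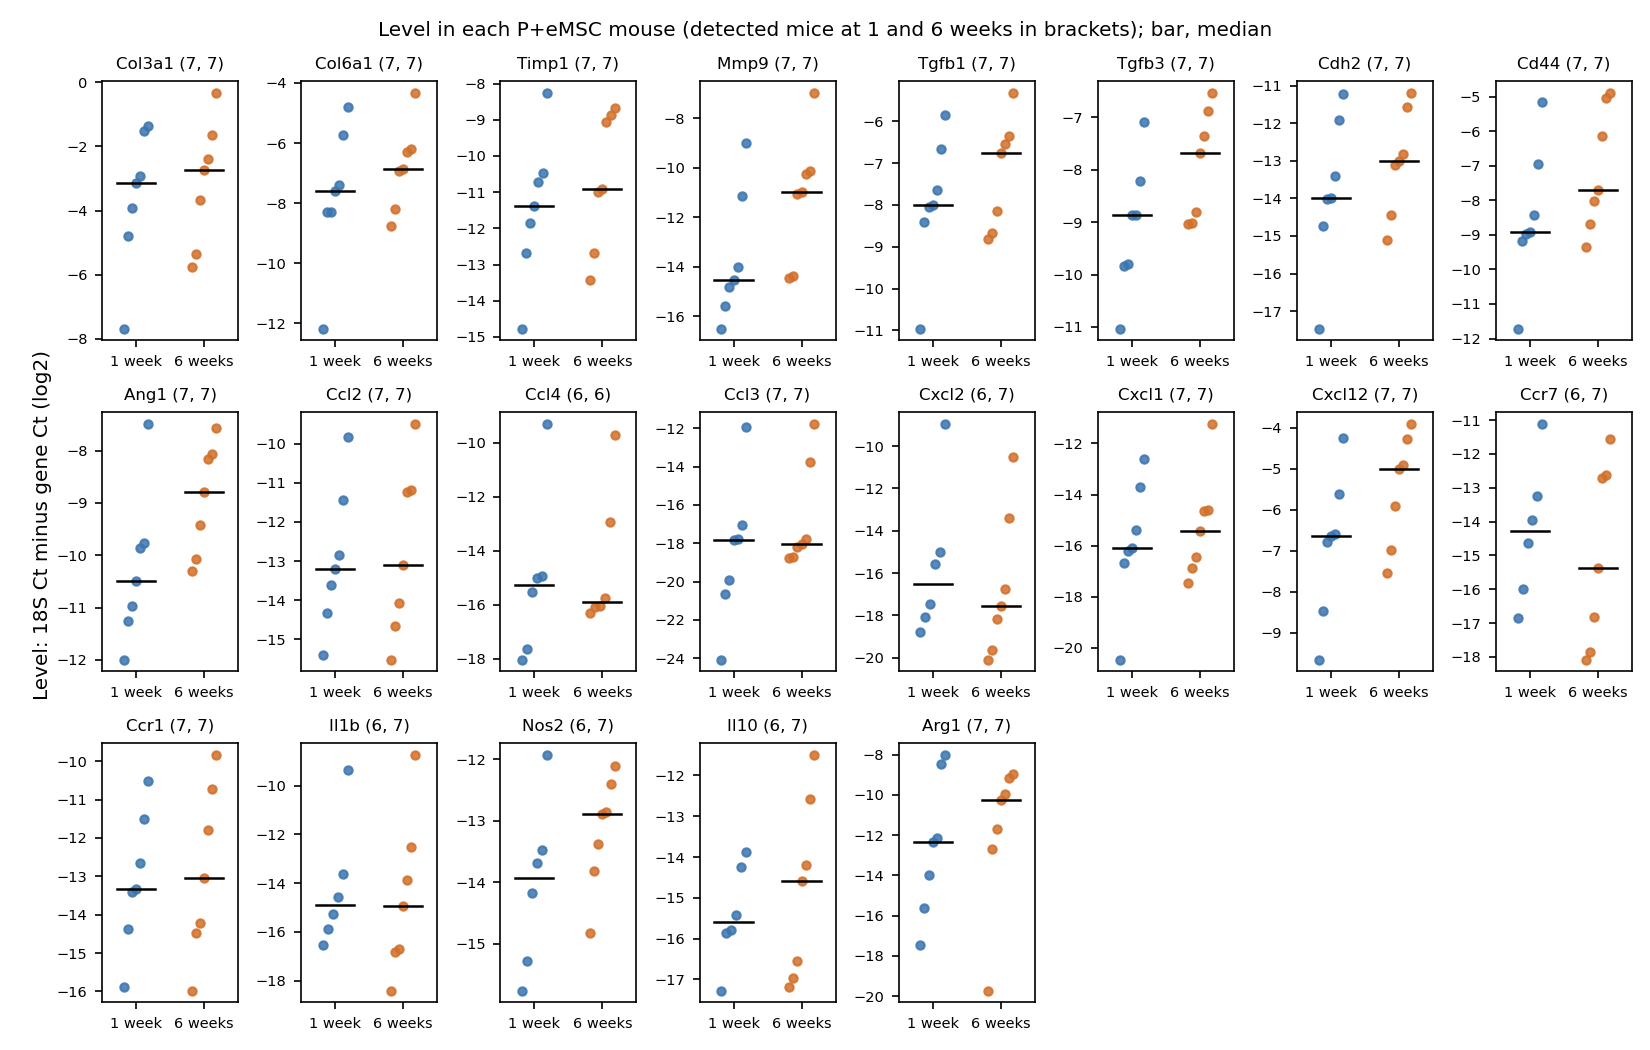
Level (18S Ct minus gene Ct, log2) of 21 named genes in each P+eMSC mouse at 1 week (blue) and 6 weeks (orange), with the median as a bar and the number of detected mice at each week in brackets. The points of the weeks overlap in each panel, and the lowest 1 week point is far from the rest in genes such as *Col6a1* and *Cdh2*.

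Chemokines recruit leukocytes. All 7 CC chemokines, which draw mainly monocytes, eosinophils and lymphocytes, had shifts above 0 relative to 18S, from 0.22 (*Ccl2*) to 1.73 (*Ccl3*), and 6 of 7 lay below 0 relative to the panel median. *Ccl2*, the main monocyte chemoattractant, ran from -15.39 through -13.20 to -9.84 at 1 week and from -15.52 through -13.10 to -9.50 at 6 weeks. The groups covered nearly the same range (shift 0.22, interval -2.32 to 3.11, exact p = 0.902). *Ccl3* levels were -24.07, -20.63, -19.93, -17.84, -17.77, -17.05 and -11.92 at 1 week. They were -18.75, -18.69, -18.20, -18.07, -17.79, -13.74 and -11.79 at 6 weeks. Mouse 10 stood alone at the top at 1 week, as did mice 2317 and 2400 at 6 weeks (shift 1.73, interval -1.15 to 6.01, exact p = 0.620).

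*Ccl4*, which shares its receptor with *Ccl3*, was detected in 6 mice of each week. Its levels were -18.04, -17.63, -15.52, -15.00, -14.93 and -9.32 at 1 week and -16.30, -16.11, -16.07, -15.76, -12.93 and -9.73 at 6 weeks. The same mice, 10, 2317 and 2400, were again the highest (shift 0.54, interval -1.37 to 5.11, exact p = 1).

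Of the 5 CXC chemokines, 4 had a shift above 0 and 1 below, against 2 above and 3 below relative to the panel median. *Cxcl12*, which holds stem and progenitor cells through CXCR4, ran from -9.65 through -6.64 to -4.24 at 1 week and from -7.54 through -5.00 to -3.92 at 6 weeks (shift 1.59, interval -0.76 to 3.46, exact p = 0.259). *Cxcl1* and *Cxcl2* both attract neutrophils. *Cxcl1* ran from -20.46 through -16.07 to -12.60 and from -17.47 through -15.42 to -11.25, a shift of 0.22 (interval -2.06 to 3.999, exact p = 1). *Cxcl2*, undetected in mouse 78, ran from -18.81 to -8.97 in 6 mice at 1 week and from -20.09 to -10.51 in 7 mice at 6 weeks. It had the lowest shift of the panel, -1.23, with an interval of -4.59 to 4.51 (exact p = 0.534). This value rests on leaving out the undetected mouse 78, for the shift of *Cxcl2* was -0.10 (exact p = 0.902) when undetected values were set below the lowest, and -0.10 (exact p = 0.876) without mouse 10. *Cxcl9* and *Cxcl10*, the interferon-induced pair, had shifts of 1.32 and 0.54.

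The 3 chemokine receptors had shifts of 0.15 (*Ccr1*), 0.57 (*Ccr2*) and -0.93 (*Ccr7*). *Ccr1*, a receptor for *Ccl3* on monocytes and neutrophils, ran from -15.90 through -13.32 to -10.50 at 1 week and from -15.98 through -13.05 to -9.84 at 6 weeks (interval -2.57 to 2.79, exact p = 1). *Ccr7*, found on dendritic cells and some T cells, was detected in 6 mice at 1 week, from -16.84 to -11.12, and in 7 at 6 weeks, from -18.08 to -11.56 (interval -4.14 to 3.06, exact p = 0.731). With the undetected value of mouse 78 set below the lowest, the shift of *Ccr7* was 0.0086. All 3 receptors lay below 0 relative to the panel median, between -1.26 and -0.80.

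Among the inflammatory cytokines and the M1 marker *Nos2* (inducible nitric oxide synthase, raised in classically activated macrophages), 3 of 4 shifts were above 0, against 1 above and 3 below relative to the panel median. *Nos2* ran from -15.76 to -11.94 in 6 mice at 1 week and from -14.83 to -12.12 in 7 mice at 6 weeks (shift 0.88, interval -0.92 to 2.41, exact p = 0.234). *Il1b*, a first-line alarm cytokine, ran from -16.55 to -9.36 in 6 mice and from -18.41 to -8.75 in 7 mice, a shift of -0.32 (interval -3.85 to 3.35, exact p = 0.731). Mouse 10 at 1 week and mouse 2317 at 6 weeks were more than 3 units above the next mouse of their week. With the undetected value of mouse 78 set below the lowest, the shift of *Il1b* was 0.01. The shifts of *Il6* and *Tnfa* were 0.52 and 0.82.

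The 4 M2 and anti-inflammatory markers had shifts from 0.52 to 1.86, whereas 1 was above 0 and 3 below relative to the panel median. *Arg1* (arginase 1), which competes with nitric oxide synthase for arginine, had the widest spread of them: -17.46, -15.60, -13.97, -12.32, -12.13, -8.45 and -8.03 at 1 week. At 6 weeks it was -19.73, -12.71, -11.71, -10.27, -9.97, -9.18 and -8.94. The lowest 6 week mouse, 2210, was far from the other 6 (shift 1.86, interval -3.68 to 5.34, exact p = 0.710). Without that mouse the shift of *Arg1* was 2.30 (exact p = 0.366), and without mouse 78, 532 or 2350 it was 0.51. *Il10*, which restrains macrophage activation, ran from -17.28 to -13.88 in 6 mice at 1 week and from -17.18 to -11.51 in 7 at 6 weeks (shift 0.52, interval -1.76 to 3.20, exact p = 0.731). *Mrc1*, which encodes the mannose receptor CD206, and *Il4ra*, the IL-4 receptor chain, had shifts of 0.65 and 0.90.

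Once the level of the whole panel was taken out of each mouse, mice 10 and 2317 stood apart from their weeks in many inflammatory genes, a pattern that was picked out after the values were seen and was not tested. The set taken held 19 genes: the chemokines, the chemokine receptors, the inflammatory cytokines and the M1 marker *Nos2*. Of these 19, mouse 10 was the highest of the 1 week mice in 12 and the lowest in 2. Those 2 were *Ccl11* and *Nos2*, the latter at -5.26 and undetected in mouse 78. Mouse 2317 was the highest of the 6 week mice in 14 and the lowest in 1, *Ccl11*. The median deviations of the 2 mice from the group median were 1.69 and 3.33. The same deviations over the other 35 genes were 0.02 and -0.07. These medians hide extremes in both directions. Of the 35 genes, mouse 10 was the highest of its week in 11 and the lowest in 12. Mouse 2317 was the highest in 5 and the lowest in 14. In mouse 2317 the panel-relative levels of *Ccl3*, *Cxcl2* and *Il1b* were -3.07, -1.79 and -0.04, against group medians of -8.16, -8.75 and -6.13. *Mmp9* was also the highest in these mice, at -0.10 in mouse 10 and 1.72 in mouse 2317.

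Mouse 2400 came next at 6 weeks, with a median deviation of 1.28 over the 19 genes. At 6 weeks the panel-relative level of *Ccl2* was -4.94, -4.12, -4.78 and -4.28 in mice 60, 2210, 2399 and 529 and -3.28, -0.78 and -1.99 in mice 2351, 2317 and 2400. At 1 week it ran from -3.46 to -0.92. The SD of *Ccl2* among mice, relative to the panel, was 0.92 at 1 week and 1.55 at 6 weeks, and it was larger at 6 weeks in 13 of the 19 inflammatory genes and in 21 of the other 35. The median SD of the 19 was 1.12 at 1 week and 1.55 at 6 weeks, and that of the other 35 was 0.79 and 0.77. Some genes outside the 19 varied more, such as *Arg1* (2.59 and 3.13) and *Cdh1* (2.06 and 2.93).

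Relative to the panel, *Fgf1*, *Fgf2*, *Vegfa*, *Ang1* and *Timp4* were the lowest of their week in both mouse 10 and mouse 2317, and so was the chemokine *Ccl11* (1.29 and 1.74, against group medians of 3.02 and 2.70). The same held for *Pdgfa*, *Tgfb2*, *Tgfb3*, *Tgfbr1*, *Timp2*, *Timp3* and *Itgb1*. All of these genes were picked for this pattern, and *Fgfr3* of the growth factor group was the highest of its week in mouse 10, at 0.46. *Fgf2* stood at -1.93 in mouse 10 and -0.99 in mouse 2317, against group medians of 0.87 and 0.95. Relative to 18S, *Ang1* in mouse 2317 was -10.30 and *Vegfa* -8.35, both the lowest at 6 weeks. Relative to 18S mouse 78 was the lowest 1 week mouse in *Fgf1*, *Fgf2*, *Vegfa*, *Ang1* and *Timp4*, so mouse 10 could not be. In *Fgf1* and *Fgf2* only mouse 78 lay below mouse 10. The *Vegfa* level of mouse 10, -8.78, was the group median. Its *Ang1* level of -10.97 and *Timp4* level of -10.77 each lay above those of 2 other mice. The pattern thus describes 2 mice relative to the panel, differed between genes relative to 18S in mouse 10 and was not tested.

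**Figure D4:**
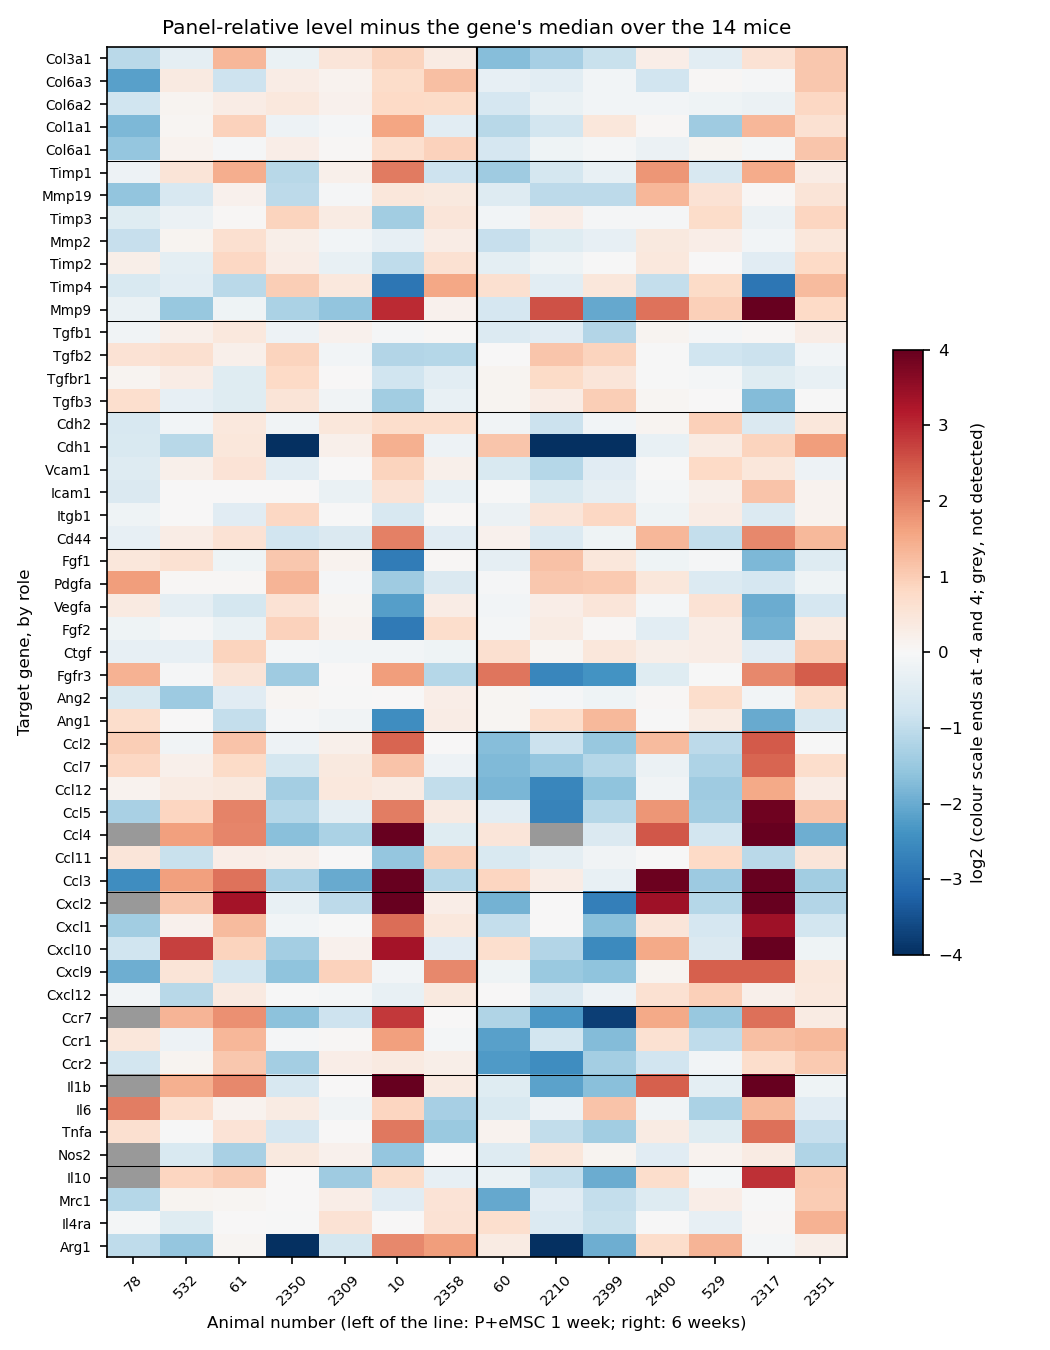
Level of 53 genes relative to the panel median of the same mouse, minus the gene's median over the 14 mice (log2, red above and blue below, grey where not detected), with the 1 week mice left and the 6 week mice right of the line. Mice 10 and 2317 are red in most chemokines, *Il1b* and *Mmp9* but blue in *Ccl11*, and mice 2350, 2210 and 2399 are dark blue in *Cdh1*.

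The cell type markers on the panel were those of fibroblasts (*Col1a1*, *Col3a1*, *Mmp2*, *Timp2*), macrophages and monocytes (*Mrc1*, *Ccr2*, *Ccr1*, *Arg1*), keratinocytes (*Cdh1*, *Fgfr3*) and, with *Ccr7* alone, dendritic cells and lymphocytes. NSG mice lack mature T and B cells, so in this host *Ccr7* does not stand for mature lymphocytes. All but *Ccr7* were detected in all 14 mice. The mean level of the 4 fibroblast genes ran from -8.97 to -2.97 at 1 week and from -6.57 to -2.16 at 6 weeks. That of the 4 macrophage genes ran from -14.44 to -8.32 and from -14.08 to -7.74, with median shifts of 0.88 and 0.61 and 0 genes called in either list. Relative to the panel median the fibroblast genes were 0 above 0 and 4 below (median -0.17), and the macrophage genes 1 above and 3 below (median -0.55). *Arg1* and *Mrc1* did not move together in mice 2350 and 2210, which were picked after the values were seen. Relative to the panel *Arg1* was -7.31 and -9.19 there, against group medians of -2.17 and -1.24. *Mrc1* was 3.17 and 2.72, against 3.26 and 2.72. Whether the mean of this list follows macrophages was not tested.

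The keratinocyte pair varied widely, with a median panel-relative SD of 1.61 at 1 week and 2.52 at 6 weeks. E-cadherin (*Cdh1*), which joins epithelial cells, had levels of -14.82, -13.41, -11.70, -9.97, -9.61, -8.09 and -7.16 at 1 week. At 6 weeks it was -15.39, -14.04, -9.15, -9.15, -8.16, -7.48 and -5.95. Mice 2210 and 2399 were thus more than 4 units below the other 5 mice at 6 weeks, and both were also the lowest 6 week mice in *Fgfr3* (-14.37 and -12.88). Mouse 2350 was the lowest 1 week mouse in *Cdh1*, at -14.82, and in *Arg1*, at -17.46, as mouse 2210 was in both genes at 6 weeks. The amount of epidermis in each piece of skin is not given in the labels, and its part in the levels was not tested.

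The change from 1 to 6 weeks in P+eMSC was next set against the changes in the sham and in the mesh-alone mice, to ask whether the time course was particular to the cell-seeded mesh. No gene passed this test either. By limma over all 41 mice, 0 of 54 genes (0%) differed between the change in P+eMSC and that in sham at an adjusted p below 0.05 (smallest adjusted p = 0.999, 0 genes with a limma p below 0.05 and 0 by permutation of treatment within each week). Against P, 0 of 54 (0%) differed as well (smallest adjusted p = 0.485, 0 genes below 0.05 by either test). These comparisons share the 14 P+eMSC mice.

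In sham mice the difference of means between the weeks was above 0 in 40 genes, with a median of 0.42, beside 0.91 in P+eMSC. In P mice it was above 0 in 10 genes, with a median of -1.05. By the Hodges-Lehmann shift the median was 0.51 in sham, with 44 genes above 0, and -0.50 in P, with 14 above 0, beside 0.88 in P+eMSC. The interaction, the change in P+eMSC minus the other change, had a median of 0.38 against sham (0.04 relative to the panel median) and of 1.70 against P. With each P+eMSC mouse left out in turn, the median against sham ran from 0.03 (without mouse 78) to 0.76 (without mouse 2358), being 0.18 without mouse 2351 and 0.60, 0.66 and 0.63 without mice 10, 60 and 2210, and that against P from 1.17 (without mouse 78) to 2.04 (without mouse 10). With the number series as a covariate the medians were 0.20 against sham and 1.09 against P. Against P it was above 0 in all 54 genes relative to 18S and in 31 relative to the panel median of 23 genes, where its median was 0.05. The size of the median against P depended in part on mouse 52, a 6 week P mouse with 31 undetected genes, and less on mouse 2356. The latter is also labelled P at 6 weeks, but this label is in doubt, since the authors' fold changes for it follow the 1 week sham mice as calibrator in most genes. The median interaction against P was 1.22 without mouse 52, 1.98 without mouse 2356 and 1.38 without both. Each time the interaction stayed above 0 in all 54 genes. The standard error of a single gene ran from 0.85 to 2.68.

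*Mmp9* and *Tgfb3* had the lowest limma p in the comparisons with sham and with P. For *Mmp9* the change was 2.48 ± 1.25 (limma standard error) in P+eMSC, -0.18 ± 1.31 in sham and 1.95 ± 1.31 in P. The interaction with sham was 2.66 ± 1.81 (adjusted p = 0.999) and that with P was 0.53 ± 1.81 (adjusted p = 0.785). For *Tgfb3* the change was 1.19 ± 0.91 in P+eMSC, 0.72 ± 0.95 in sham and -1.38 ± 0.92 in P, with an interaction of 2.57 ± 1.30 against P (adjusted p = 0.485), which was 1.49 without mouse 52 and 0.36 relative to the panel median.

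**Figure D5:**
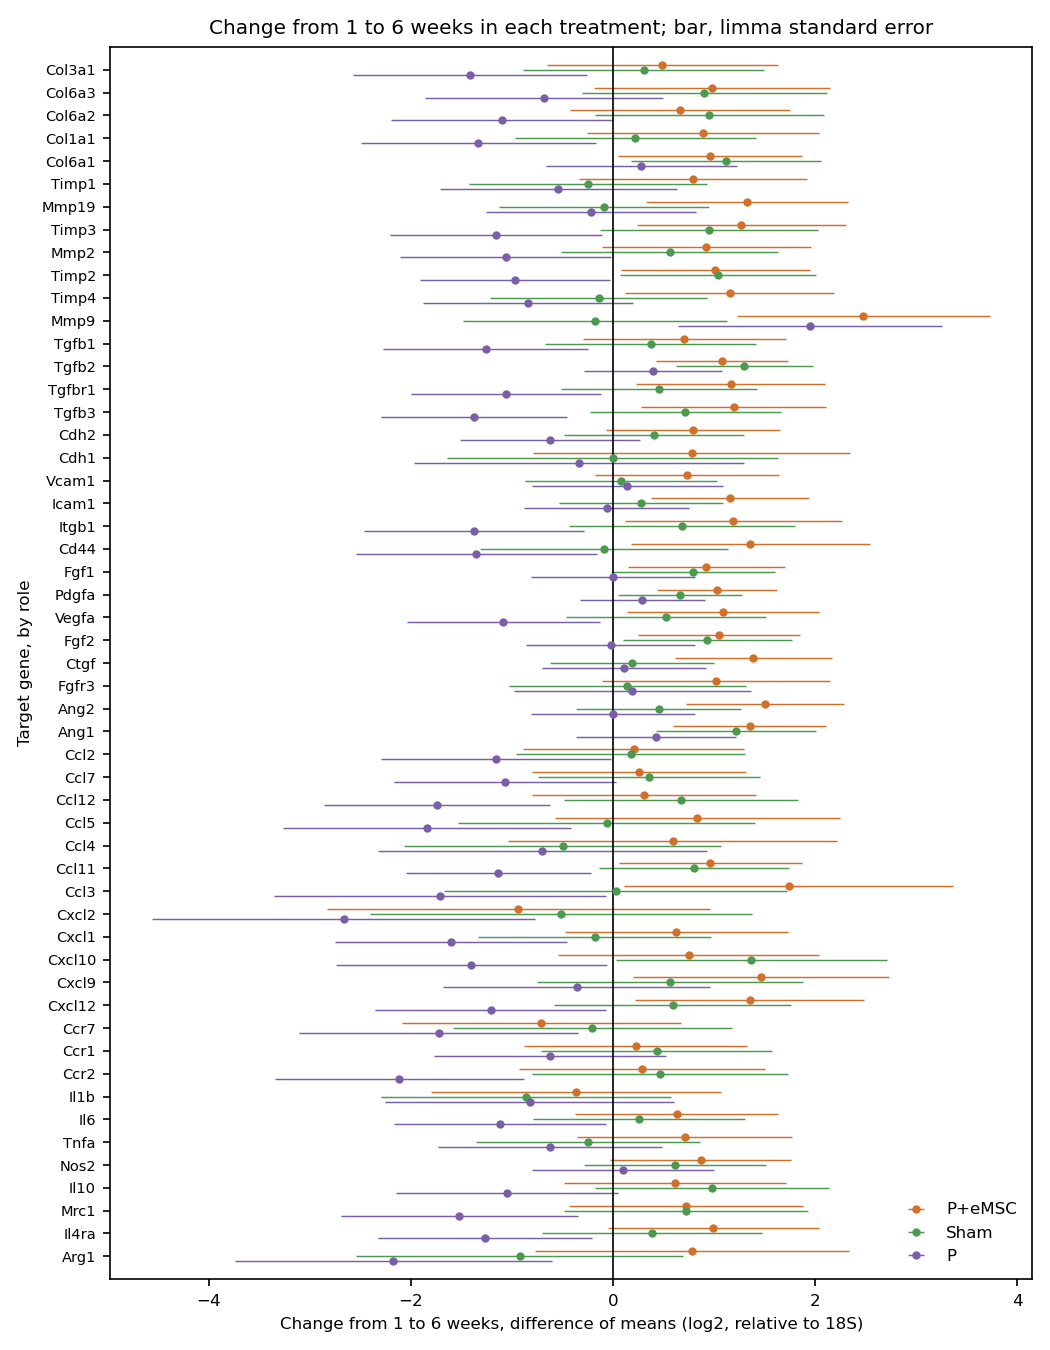
Difference of means between 6 weeks and 1 week for 53 of the 54 genes in P+eMSC (orange), sham (green) and P (purple) mice, log2 relative to 18S, with the limma standard error as a bar. The P points lie mostly left of 0 and the P+eMSC points right of it. Mouse 52, undetected in 31 genes, is among the P mice.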

How the data were processed

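Per the labels and the study's methods, total RNA was extracted from skin with the RNeasy kit, 100 ng was reverse transcribed, preamplified for 14 cycles and measured on a Fluidigm dynamic array. The authors deposited raw Ct values from the Fluidigm software (in cycles, with 999 where no Ct was called; no other unit applies), which were used here. A second table holds their fold change ratios against sham controls of the same week, made with 18S, and was not used for any value, since its calibrator differs between the weeks. Since qPCR gives no read depth, precision is set by the number of mice. Per the study's methods each woman's biopsy gave 1 cell line, counted as a replicate, but the labels do not tie lines to mice, so p-values measure the spread between these mice.

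Levels (18S Ct minus gene Ct) were compared by a two-sided Mann-Whitney U test, exact over all 3432 divisions, in genes with at least 4 values a week. The methods' threshold, p of at most 0.0513, was used for calls. For 7 against 7 mice the p-values nearest to it are 0.0379 and 0.0530. The shift is the Hodges-Lehmann estimate with the interval inverting the test at 0.05, and p-values were adjusted by Benjamini-Hochberg over the 54 genes. Undetected values were left out. limma was fitted to all 41 mice with the 6 groups as terms, and the interactions were called at an adjusted p below 0.05, with 100000 resamples for the permutation within weeks. Scripts were tested on simulated data.

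The 21 named genes are every called gene, the largest and smallest absolute shift in each of 10 role lists and every gene with an undetected value; *Pdgfa*, *Cdh1* and other names were added after the values were seen. Another gene that the rule picks is not reported here, though it stays in all counts and fits. The members and lists were chosen with earlier results of these data known. Gene names were looked up in RefSeq for GRCm38.p6, where 50 were symbols and 4 synonyms. The software was Python 3.11.15 (numpy 2.4.6, pandas 2.3.3, scipy 1.17.1, matplotlib 3.10.9) R 4.3.3 and limma 3.58.1. How alternatives moved the values is given in the closing section.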

Additional observations from a re-analysis of the deposited data

Results flagged for a closer look

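Of 112 sets of values (54 genes, the panel median and the 18S Ct, at each week), 3 had a highest or lowest mouse that was far from the others by Dixon's ratio, the gap to the nearest mouse divided by the range of the group. Chance alone would mark about 1 in 20 groups, so 3 of 112 (2.68%) is not an excess. In *Tgfb2* at 1 week the ratio was 0.610 for mouse 78, which stood at -13.21 with the nearest mouse at -11.20. In *Ccl4* at 1 week it was 0.643 for mouse 10, at -9.32 against -14.93. In *Arg1* at 6 weeks it was 0.651 for mouse 2210, at -19.73 against -12.71.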

How the results depend on the processing

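Pairing by animal was not possible because the groups share no animal number and each mouse was sampled at 1 week or at 6 weeks. Pairing by cell line was not possible either, since the labels do not tie lines to mice. Whether the weeks share cell lines is not known. The count of genes called higher was 0 to 9 and that called lower 0 to 0 when each mouse was left out in turn, and the median shift was 0.46 (without mouse 78) to 1.24 (without mouse 2358). Calls of 0 held with the panel median, undetected values set below the lowest, a median Ct of 25 or less (which removes 0 genes), limma, an adjusted p below 0.05, an exact p below 0.01, permutation within the animal number series (below 1000 and above 2000), no reference gene and without mice 78 and 2210, the last 2 chosen after seeing the data. The exact permutation test of the mean called 1. The median shift became -0.12 with the panel median. Within the number series, the median difference of means was 1.03 below 1000 and 0.36 above 2000, and 0.59 together.

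The panel median turned *Ccl2* (-1.06), *Ccl4* (-0.15), *Ccr1* (-0.80), *Cdh2* (-0.27), *Col3a1* (-0.60), *Col6a1* (-0.22), *Cxcl1* (-0.74), *Il10* (-0.054), *Tgfb1* (-0.25) and *Timp1* (-0.33). Setting undetected values below the lowest turned *Ccr7* (0.0086) and *Il1b* (0.01), gave *Ccl4* a shift of 0 and took *Cxcl2* from -1.23 to -0.10. Within the number series *Ccl2* was -0.14 and *Ccr1* -0.17, with no reference gene -0.045 and -0.013, and without mice 78 and 2210 *Cxcl1* was -0.11 and *Il1b* 0.087. With each mouse left out, the shift ran from -0.29 to 0.43 for *Ccl2*, -0.25 to 0.72 for *Ccr1*, -0.32 to 0.76 for *Cxcl1*, -0.19 to 0.93 for *Col3a1*, -0.32 to 1.21 for *Il10*, -1.13 to 0.087 for *Il1b*, -1.51 to 0.0086 for *Ccr7* and -0.56 to 1.65 for *Ccl4*. None of these values passed the test, and the cause was not tested. The interactions had 0 calls under each alternative, though their medians moved (0.38 to 0.20 against sham and 1.70 to 1.09 against P with the number series as a covariate).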
